A study of Mus musculus with 32 samples.

Results

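The genes described here are 39 ribosome biogenesis factors, proteins that make, modify, cut and assemble ribosomal RNA. They were taken by symbol from a table of raw gene counts holding 24421 genes, and all 39 were found and were among the 14154 genes that passed a filter on low counts. RNA sequencing was done on 8 fractions sorted from the bone marrow of female C57BL/6 mice aged 10 weeks (Young) or 20 months (Aged), with 2 libraries in each of the 16 groups and 32 in all. The labels name no treatment and no genetic change for any group. The fractions were HSCs (hematopoietic stem cells), 4 kinds of MPPs (multipotent progenitors, numbered MPP1 to MPP4), CLPs (common lymphoid progenitors), MEPs (progenitors of megakaryocytes and red cells) and GMPs (progenitors of granulocytes and macrophages). HSCs were sorted as Flt3-, CD48-, CD150+ and CD34- cells of the Lin- Sca-1+ c-kit+ gate without IL-7 receptor, and MPP1 differed from them in being CD34+. MPP2 was CD48+ with CD150, MPP3 was CD48+ without CD150, and MPP4 carried Flt3 as well as CD48. GMPs and MEPs were Sca-1- and c-kit+, with FcgR and CD34 in GMPs and neither in MEPs, and CLPs were Lin- cells with the IL-7 receptor and low Sca-1 and c-kit. By the study's methods marrow was pooled by age before the duplicate sorts, so the p-values below may cover only the spread between sorts and library preparations and not that between mice.

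Ribosomes are built in the nucleolus, where RNA polymerase I transcribes ribosomal DNA into a long precursor RNA. Box C/D and box H/ACA ribonucleoproteins methylate this precursor or turn uridines into pseudouridine at sites chosen by their guide RNAs, and large assemblies then fold and cut it into the RNAs of the small and the large subunit. The rate of this pathway is known to follow cell growth and division. HSCs are known for a low rate of protein synthesis compared with the progenitors they give rise to.

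By role, 5 genes belong to the transcription machinery: Polr1a and Polr1b (the large catalytic subunits of RNA polymerase I), Polr1c (a subunit shared with RNA polymerase III), Polr1e (a further subunit) and Ubtf (upstream binding factor, which coats active ribosomal DNA). The 6 nucleolar proteins are Ncl (nucleolin), Npm1 (nucleophosmin), Nolc1 (a chaperone of small nucleolar ribonucleoproteins), Gnl3 (nucleostemin, a GTPase), Ddx21 (an RNA helicase) and Mybbp1a. The 4 box C/D proteins are Fbl (fibrillarin, the methyltransferase), Nop56, Nop58 and Rrp9, and the 4 box H/ACA proteins are Dkc1 (dyskerin, the pseudouridine synthase), Gar1, Nhp2 and Nop10. Another 11 act on the small subunit: Wdr43, Utp15, Utp20, Heatr1, Nop14, Imp4, Nat10 (an RNA acetyltransferase), Rrp12, Bysl, Tsr1 and Nob1 (the endonuclease of the last cut). The remaining 9 act on the large subunit: Bop1, Pes1 and Wdr12 (which form 1 complex), Nop2 (an RNA methyltransferase), Wdr74, Nop16, Rrs1, Nip7 and Noc2l.

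Total counts per library were between 11237384 and 17723245, and the lowest count of any of the 39 genes in any library was 321. How counting error compared with the spread between libraries was not tested. Levels are given as CPM, counts scaled to a common library size after correction by the trimmed mean of M-values (TMM). The antigens used for sorting were read to check the labels. Il7r had a mean of 158 CPM in Young and 195 CPM in Aged CLPs and at most 13.4 CPM in any other group. Fcgr3 had 481 and 493 CPM in Young and Aged GMPs, Flt3 was highest in MPP4 (1060 and 732 CPM), Slamf1, the gene of CD150, was highest in HSCs (53.9 and 74.1 CPM), and Cd34 was near 0 in MEPs (0.351 and 0.629 CPM). Cd34 transcripts went against the CD34- gate in HSCs, at 204 and 179 CPM, although lower than in any MPP (654 CPM or more).

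Motifs in the promoters of these genes were read from RefSeq (GRCm38.p6), in which 34 of the 39 had an entry and 31 of those had 1 listed start. The 250 bases before each start were searched on both strands for 4 motifs, chosen because the genes moved together between fractions and ages. The E-box CACGTG, which Myc and related factors bind and which reads the same on both strands, was in 2 of the 34 (5.88%), against 6.05% of 27025 promoters. The GC box GGGCGG was in 20 (58.8%) against 32.9% of all promoters, the ETS motif CCGGAAGT in 6 (17.6%) against 2.93%, and the TATA box TATAAA in 2 (5.88%) against 12.97%. None of these motifs holds another. These shares are descriptions of windows of sequence, and a match is not a binding site. The 27025 promoters were not limited to tested genes. Only the first listed start of a gene was used, and bases after the start were not searched.

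Both upstream windows with an E-box are shown, as is each ETS window that lies outside annotated coding exons, with the motif in capitals. The Imp4 window was cut short where an exon of the neighbouring Ccdc115 begins, and the motif starts 121 bases before the gene start. In Nop2 it starts 60 bases before the start.
Imp4, chr1:34439673-34439828, plus strand: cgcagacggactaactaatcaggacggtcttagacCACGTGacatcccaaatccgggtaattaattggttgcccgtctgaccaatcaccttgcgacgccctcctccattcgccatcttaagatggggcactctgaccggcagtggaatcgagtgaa
Nop2, chr6:125131633-125131882, plus strand: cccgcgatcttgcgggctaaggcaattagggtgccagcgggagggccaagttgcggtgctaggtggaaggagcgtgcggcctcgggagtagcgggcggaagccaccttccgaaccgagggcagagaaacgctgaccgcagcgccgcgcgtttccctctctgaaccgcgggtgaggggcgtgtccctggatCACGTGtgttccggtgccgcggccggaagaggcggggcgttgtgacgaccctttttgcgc
The ETS motif starts 44 bases before the start of Gar1, 103 before that of Nip7 and 27 before that of Wdr74. In Nhp2, Heatr1 and Polr1c it lies in an annotated exon and is not shown.
Gar1, chr3:129831417-129831456, minus strand: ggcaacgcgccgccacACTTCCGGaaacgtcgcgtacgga
Nip7, chr8:107056758-107056797, plus strand: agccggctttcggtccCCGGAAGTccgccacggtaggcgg
Wdr74, chr19:8735796-8735826, plus strand: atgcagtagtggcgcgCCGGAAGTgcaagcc

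Together the 39 genes took between 0.458% and 1.27% of all counts in a library. In Young mice their share was 0.465% and 0.458% in HSCs, 0.551% to 0.638% over the 8 MPP libraries, 0.699% to 0.706% in GMPs and CLPs, and 1.10% in both MEP libraries. In Aged mice it was 0.523% and 0.503% in HSCs, and the MPPs had 0.653% and 0.650% (MPP1), 0.715% and 0.738% (MPP2), 0.740% and 0.782% (MPP3), and 0.801% and 0.846% (MPP4). The Aged share was thus above both Young libraries in HSCs and in each MPP fraction. Aged MEPs reached 1.27% in both libraries and Aged GMPs 0.733% in both, whereas Aged CLPs fell to 0.557% and 0.603%, below both Young CLP libraries. These are bulk samples, in which fewer cells of one type and less RNA per cell cannot be told apart.

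**Figure D1:**
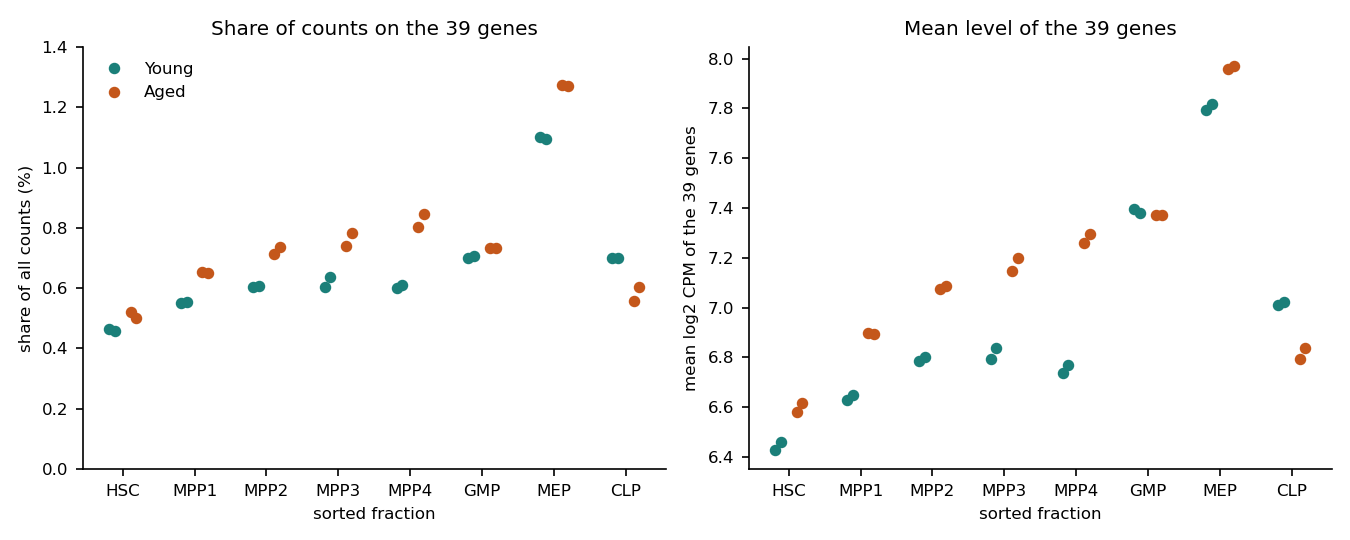
Share of all counts (%, left) and mean log2 CPM (right) of the 39 genes (y axes) in each library by fraction (x axes). Young and Aged libraries are in separate colours, with 1 point per library. By mean log2 CPM both Aged libraries lie above both Young ones in HSCs, the 4 MPP fractions and MEPs (7.79 and 7.82 in Young MEPs, 7.96 and 7.97 in Aged MEPs). They lie below them in CLPs (7.01 and 7.02 in Young, 6.79 and 6.84 in Aged) and, by a small margin, in GMPs. By share of counts, which has no TMM correction, both Aged GMP libraries (0.733%) lie above both Young ones (0.702% and 0.706%).

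Levels between genes were compared only per length, as CPM per kilobase of the longest coding transcript. On that scale Npm1 had the highest level of the 39 in Young HSCs at 232 CPM per kilobase, followed by Fbl at 140.4 and Nop10 at 113. Utp20, a very large scaffold protein of the small-subunit precursor, had the lowest at 4.23, below Wdr12 at 8.05 and Polr1a at 8.14. This order depends on the transcript used. The longest one was 10012 bases for Wdr12, 9507 for Nop58 and 8202 for Ncl, against 2491 for Bop1 and 2923 for Pes1. Which transcripts the cells made was not examined, so a gene with a long one may rank too low, Wdr12 and Ncl among them. Npm1 has processed pseudogenes, and how reads were divided among such copies was not stated, so its level is less certain than the others. In 13 of the 39 genes the transcribed region overlaps a coding gene on the opposite strand, by 2984 bases for Tsr1 (with Srr), 2319 for Polr1e (with Fbxo10), 2007 for Bop1 (with Scx), 987 for Rrp9 (with Parp3) and 875 for Heatr1 (with Lgals8). Reads of such pairs cannot be told apart where strand was not used, and its use was not stated. The study's methods put sonicated, amplified cDNA into a DNA library kit and name no step that keeps the strand. Counts of these 13 genes may thus hold reads of the opposite gene.

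The order of the fractions in Young mice was examined first, with each fraction set against Young HSCs. All 39 ribosome biogenesis factors were higher in Young MEPs than in Young HSCs, with a median log2 fold change of 1.41 (a log2 fold change of 1 means 2 times the level). In GMPs 35 were higher (median 0.95) and in CLPs 25 were higher and 2 lower (median 0.55). Among the MPPs, MPP1 had 12 higher and 1 lower (median 0.18), MPP2 had 20 higher (0.31), MPP3 had 21 higher (0.35), and MPP4 had 18 higher and 2 lower (0.32). The difference from HSCs was largest in MEPs for 33 of the 39. HSCs did not have the lowest value of every gene, since 11 had negative log2 fold changes in MPP1, 6 to 9 in the later MPPs and 8 in CLPs, most of them not called. All 7 comparisons share the 2 Young HSC libraries. A gene is called here at an adjusted p under 0.01 by the quasi-likelihood test of edgeR with Benjamini-Hochberg adjustment over all 14154 tested genes.

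These counts stand beside large shares of all genes called in the same comparisons. Young MPP1 had 9.10% of all tested genes higher and 5.67% lower than HSCs, MPP2 17.5% and 16.1%, MPP3 17.5% and 12.8%, and MPP4 18.5% and 16.1%. For MEPs the shares were 29.7% higher and 39% lower, for GMPs 31.8% and 32.8%, and for CLPs 29.2% and 28.1%. No ribosome biogenesis factor was called lower by edgeR in MPP2, MPP3, GMPs or MEPs. At an unadjusted p under 0.05, 2 were lower in MPP2, 1 in MPP3 and 0 in GMPs and MEPs, and DESeq2 called 1 lower in MPP2 and 0 in the others. Leaving out Young HSC replicate 1 or 2 lowered the number called in MPP1 from 13 to 5 or 2, and leaving out Young MPP1 replicate 2 lowered it to 6.

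**Figure D2:**
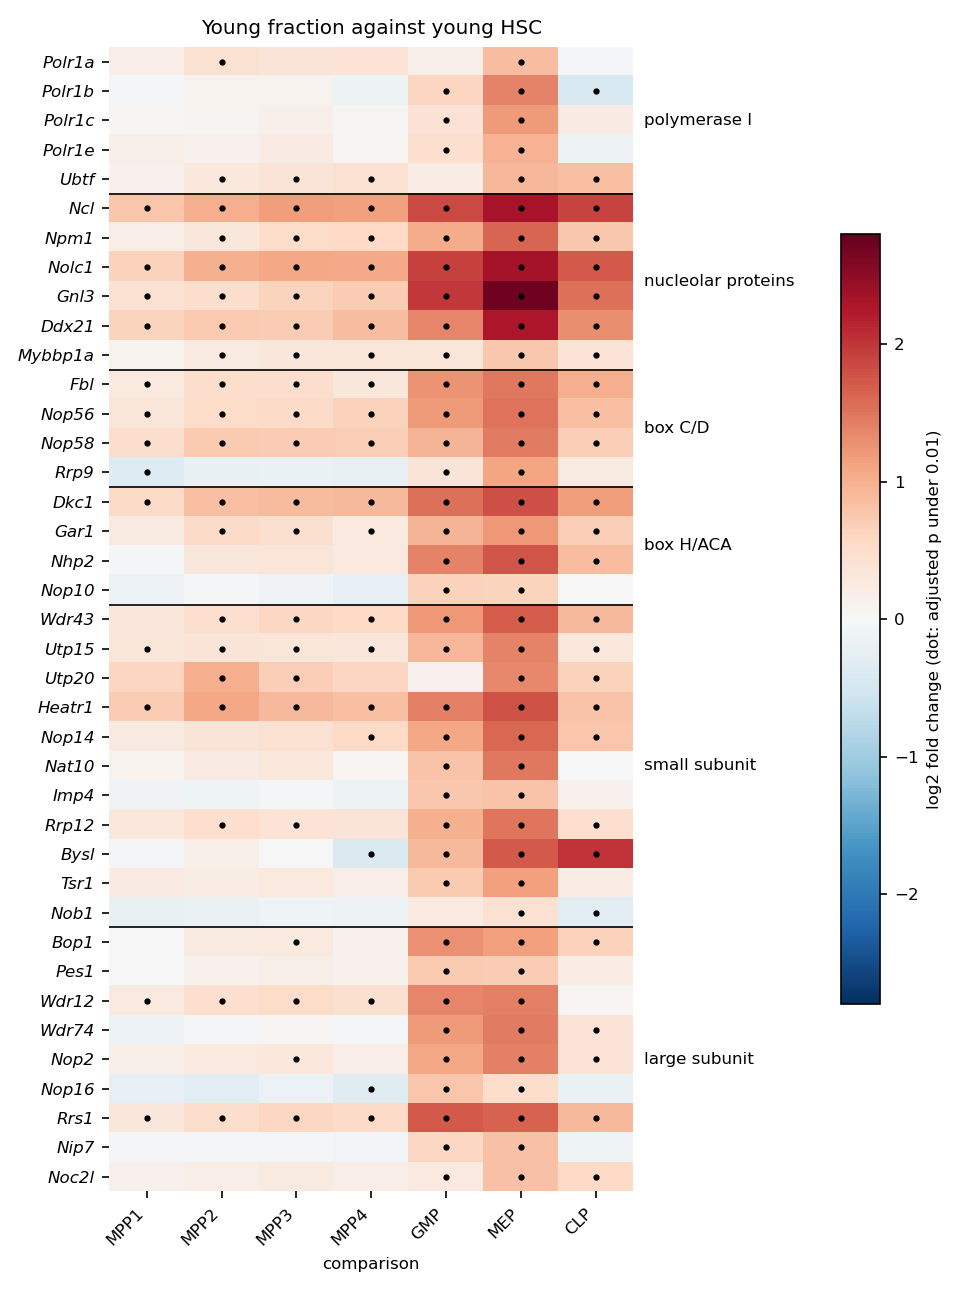
Heat map of log2 fold changes of each Young fraction against Young HSCs (columns) for the 39 genes (rows, grouped by role), coloured from lower to higher, with a dot where the adjusted p was under 0.01. MEPs carry a dot in every row, and Gnl3, Nolc1, Ncl and Ddx21 have the largest differences there (2.72, 2.34, 2.31 and 2.27).

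The 6 nucleolar proteins had the highest median log2 fold change of the roles in each of the 7 comparisons, from 0.52 in MPP1 to 2.29 in MEPs, although roles were not tested against each other. Gnl3 was at 28.6 and 30.8 CPM in Young HSCs, 113 and 119.8 CPM in Young GMPs, 84.1 and 88.1 CPM in Young CLPs and 195 and 195 CPM in Young MEPs, without overlap between these groups. The difference from HSCs was 2.72 (SE 0.091, adjusted p = 6.9e-17) in MEPs and 1.97 (SE 0.09, adjusted p = 1.69e-14) in GMPs. Nucleolin rose from 388 and 336 CPM in Young HSCs to 614 and 621 CPM in MPP1, the first step of the series, a log2 fold change of 0.77 (SE 0.11, adjusted p = 1.18e-05). It reached 1255 and 1346 CPM in GMPs, 1347 and 1339 CPM in CLPs and 1875 and 1716 CPM in MEPs. Nolc1 was called higher than in HSCs in all 7 fractions, from 0.66 in MPP1 to 2.34 in MEPs, and so were Ncl, Gnl3, Ddx21, Fbl, Nop56, Nop58, Dkc1, Utp15, Heatr1 and Rrs1.

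Small-subunit factors did not move as 1 block. Heatr1, which links transcription to processing, was the gene with the largest difference in MPP2 (1.09 (SE 0.13, adjusted p = 3.42e-07)), followed by Utp20 at 1.03. Bysl, a late factor of the small subunit, was at 79.2 and 78.3 CPM in HSCs and 319 and 322 CPM in CLPs, its highest level in any group and the largest difference of the 39 in CLPs (2.03 (SE 0.087, adjusted p = 9.79e-15)). In MPP4, by contrast, Bysl was lower than in HSCs, at 56.1 and 63.0 CPM (-0.40 (SE 0.087, adjusted p = 0.000632)), a call lost without Young MPP4 replicate 1 (-0.32, adjusted p 0.021). Utp20 had 0.11 in GMPs and Nob1 0.28, neither of them called (adjusted p 0.633 and 0.0114), and Nob1 had the smallest difference of the 39 in MEPs (0.43 (SE 0.095, adjusted p = 0.000313), and 0.25 with an adjusted p of 0.015 by library totals).

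The median log2 fold change of the 5 polymerase I genes against Young HSCs was -0.04 in CLPs, 0.40 in GMPs and 0.98 in MEPs. Polr1b was lower in CLPs (79.3 and 69.8 CPM) than in HSCs (96.3 and 106 CPM), a log2 fold change of -0.44 (SE 0.079, adjusted p = 4.5e-05), and higher in MEPs at 267 and 260.4 CPM (1.38). In GMPs Polr1a and Ubtf, at 0.16 and 0.20, were not called (adjusted p 0.243 and 0.0424). The other genes called lower than in HSCs were Nob1 in CLPs (-0.31), Nop16 in MPP4 (-0.35) and Rrp9 in MPP1 (-0.36). Library composition bears on the GMP, MEP and CLP values: scaling by library totals alone shifted the median of all genes by -0.42, -0.19 and -0.19 log2 against HSCs, and the medians of the 39 genes were then 0.53, 1.22 and 0.36, with 19 higher and 5 lower in CLPs. With offsets for GC content and length, the short gene Nop10 turned from 0.63 to -0.15 in MEPs and from 0.65 to -0.10 in GMPs.

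The question of ageing was then asked in each fraction. In Aged MPPs the ribosome biogenesis factors were higher as a group. Averaged over MPP1 to MPP4, 38 of the 39 genes were called higher in Aged cells, with a median log2 fold change of 0.33, where 18.9% of all tested genes were called higher and 17.7% lower. Ubtf was the exception, with 0.05 (SE 0.043, adjusted p = 0.323). By role, 4 of 5 polymerase I genes, 6 of 6 nucleolar proteins, 4 of 4 box C/D and 4 of 4 box H/ACA proteins, 11 of 11 small-subunit and 9 of 9 large-subunit factors were called higher. The count was 38 without any one of the 16 MPP libraries.

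The age differences of single MPP fractions had medians between 0.26 and 0.51. The number called higher was 8 for MPP1 (median 0.26), 11 for MPP2 (0.27), 22 for MPP3 (0.34) and 34 for MPP4 (0.51). Of all tested genes 4.71%, 4.49%, 8.14% and 10.3% were called higher and 2.09%, 3.31%, 5.79% and 6.27% lower in these fractions. No ribosome biogenesis factor was lower in any of the 4 by edgeR, at an unadjusted p under 0.05 or by DESeq2 (0 in each). Both Aged libraries lay above both Young libraries for 36 (MPP1), 39 (MPP2), 35 (MPP3) and 38 (MPP4) of the 39 genes, where the shares of all tested genes were 31.1%, 32.3%, 29.5% and 29.8%. The age difference in MPP4 was the largest of the 4 in 34 genes, although differences between MPP fractions were not tested. The 7 genes called in all 4 MPPs were Polr1b, Polr1c, Gnl3, Mybbp1a, Fbl, Nhp2 and Bop1, of which Fbl kept its calls without any one library while Polr1b, Polr1c, Nhp2 and Bop1 lost theirs in MPP1 without Young MPP1 replicate 1. Counts in MPP1 and MPP2 fell whichever of their libraries was left out. Such a fit leaves 1 library in that group and is less able to call a gene. The lower counts thus do not show that the calls rested on single libraries. In MPP3, 13 were called without Young MPP3 replicate 1. The order of the counts also depended on the fit, since fits to the 4 libraries of each fraction called 20 (MPP1), 27 (MPP2), 9 (MPP3) and 21 (MPP4), all higher.

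**Figure D3:**
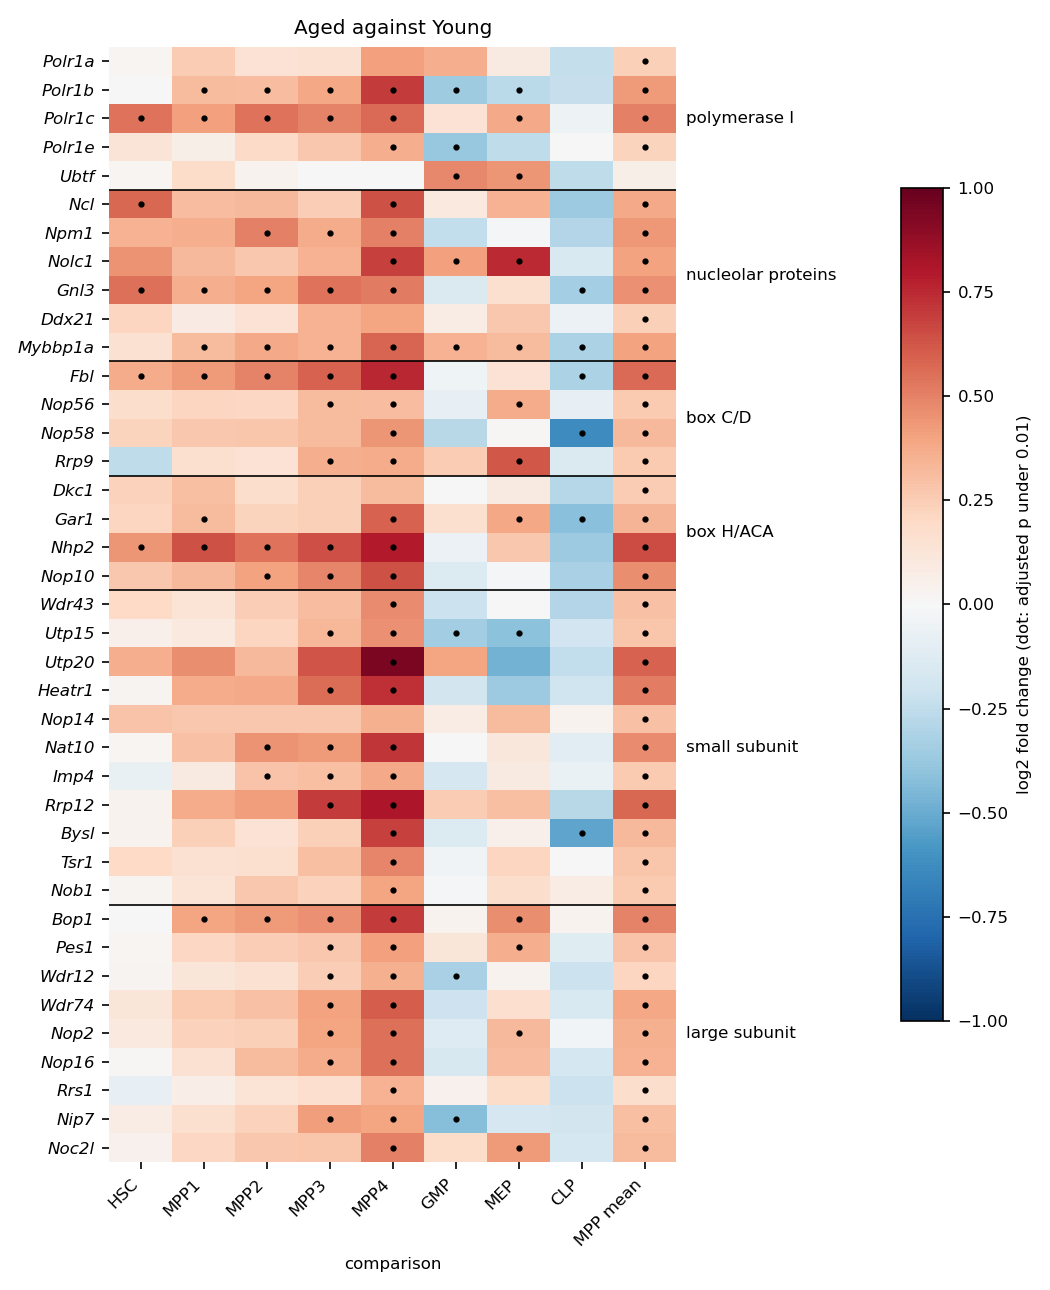
Heat map of Aged against Young log2 fold changes in the 8 fractions and in the mean of MPP1 to MPP4 (columns) for the 39 genes (rows, grouped by role), with a dot where the adjusted p was under 0.01. The MPP4 column carries 34 dots, all of them higher in Aged cells, whereas the CLP column carries 6 dots, all of them lower.

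All 8 box H/ACA and box C/D proteins were higher in the mean of the Aged MPPs. Nhp2, which binds the guide RNA of box H/ACA particles (chr11:51619735-51623714, plus strand, GRCm38), was at 70.8 and 77.2 CPM in the Young libraries and 116 and 114 CPM in the Aged libraries of MPP1. In MPP2 it was at 87.1 and 100.1 CPM in the Young libraries and 135 and 138 CPM in the Aged libraries, in MPP3 at 94.1 and 97.8 CPM in Young and 150.4 and 149.9 CPM in Aged, and in MPP4 at 85.0 and 97.2 CPM in Young and 163 and 151 CPM in Aged. The ages did not overlap in any MPP fraction, and the mean log2 fold change of 0.65 (SE 0.053, adjusted p = 2.37e-09) was the largest of the 39 genes. Within single fractions it was 0.64 in MPP1 and 0.54 in MPP2, where the calls were lost without Young MPP1 replicate 1 (0.57, adjusted p 0.015) and without Young MPP2 replicate 1 (0.45, adjusted p 0.043).

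Fibrillarin, the methyltransferase of the box C/D particle (chr7:28169710-28179269, plus strand), rose in all 4 MPPs and kept its call without any one library. It was at 194 and 210.0 CPM in the Young libraries and 274 and 270.2 CPM in the Aged libraries of MPP1, and at 239 and 236 CPM in Young and 329 and 339 CPM in Aged MPP2. In MPP4 it was at 211 and 211 CPM in the Young libraries and 344 and 365 CPM in the Aged libraries, the widest gap of the 4 at 0.75 (SE 0.067, adjusted p = 7.32e-08). Its scaffold partners rose less, Nop58 by 0.33 and Nop56 by 0.26 in the mean of the MPPs, and Dkc1, the catalytic protein of the box H/ACA particle, by 0.26 (SE 0.044, adjusted p = 5.68e-05). Nop10 and Gar1 rose by 0.46 and 0.34. Dkc1 was thus called in the mean of the MPPs but in none of the 8 fractions alone, as were Ddx21, Nop14 and Polr1a.

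Among nucleolar proteins, nucleolin was at 798 and 804 CPM in the Young libraries and 1133 and 1361 CPM in the Aged libraries of MPP4 (0.64 (SE 0.11, adjusted p = 0.000111)). Its libraries did not overlap by age in MPP1 or MPP2 (614 and 621 against 779.8 and 748 CPM and 723 and 732 against 860.3 and 966 CPM), but did in MPP3 (734 and 895 against 887 and 1045 CPM). Over the 4 MPPs the difference was 0.38 for Ncl, 0.44 for Npm1 and 0.46 (SE 0.044, adjusted p = 2.44e-08) for Gnl3. Polr1b, a catalytic subunit of polymerase I (chr2:129100995-129126594, plus strand), was at 94.9 and 87.7 CPM in the Young libraries and 152 and 144 CPM in the Aged libraries of MPP4 (0.70 (SE 0.078, adjusted p = 1.29e-06)). Ubtf stood apart at 204 and 196 CPM in Young and 211 and 190.3 CPM in Aged MPP4, with overlapping libraries. Polr1a rose by 0.24 (SE 0.059, adjusted p = 0.00199) in the mean of the MPPs, a call that was lost when libraries were scaled by their totals alone (0.18, adjusted p 0.021).

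The 11 small-subunit factors had a median of 0.49 in MPP4, near the 0.51 of all 39 genes, and included Utp20 and Rrp12, the genes with the largest differences there. Utp20 (chr10:88746607-88826804, minus strand) was at 68.5 and 44.3 CPM in the Young libraries and 113 and 105 CPM in the Aged libraries of MPP4, a difference of 0.94 (SE 0.20, adjusted p = 0.00111). The 2 Young libraries were far apart, and the call was lost without Young MPP4 replicate 2 (0.66, adjusted p 0.037) or Aged MPP4 replicate 1 (0.89, adjusted p 0.014). Rrp12, which acts in export and maturation of the precursors, was at 60.1 and 60.8 CPM in the Young libraries and 105 and 106 CPM in the Aged libraries of MPP4 (0.81 (SE 0.11, adjusted p = 1.12e-05)), and in MPP3 at 60.5 and 63.5 CPM in Young and 93.7 and 108 CPM in Aged (0.70). Both of its calls held without any one library. Heatr1 rose by 0.73 in MPP4 and Nob1, the endonuclease, by 0.26 (SE 0.048, adjusted p = 0.000129) in the mean of the MPPs.

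Of the large-subunit factors, Bop1 was at 112 and 122 CPM in the Young libraries and 193 and 188 CPM in the Aged libraries of MPP4 (0.70 (SE 0.076, adjusted p = 9.56e-07)), and rose by 0.50 in the mean of the MPPs. Its partners in the same complex, Pes1 and Wdr12, rose by 0.28 (SE 0.035, adjusted p = 1e-06) and 0.22 (SE 0.033, adjusted p = 1.35e-05). Rrs1 had the smallest difference that was called in the mean of the MPPs (0.18 (SE 0.035, adjusted p = 0.000272)). Nop2, whose E-box window is shown above, rose by 0.36 and Imp4 by 0.26. The 3 genes with a printed ETS window rose by 0.34 (Gar1), 0.30 (Nip7) and 0.39 (Wdr74), within the range of the other genes.

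**Figure D4:**
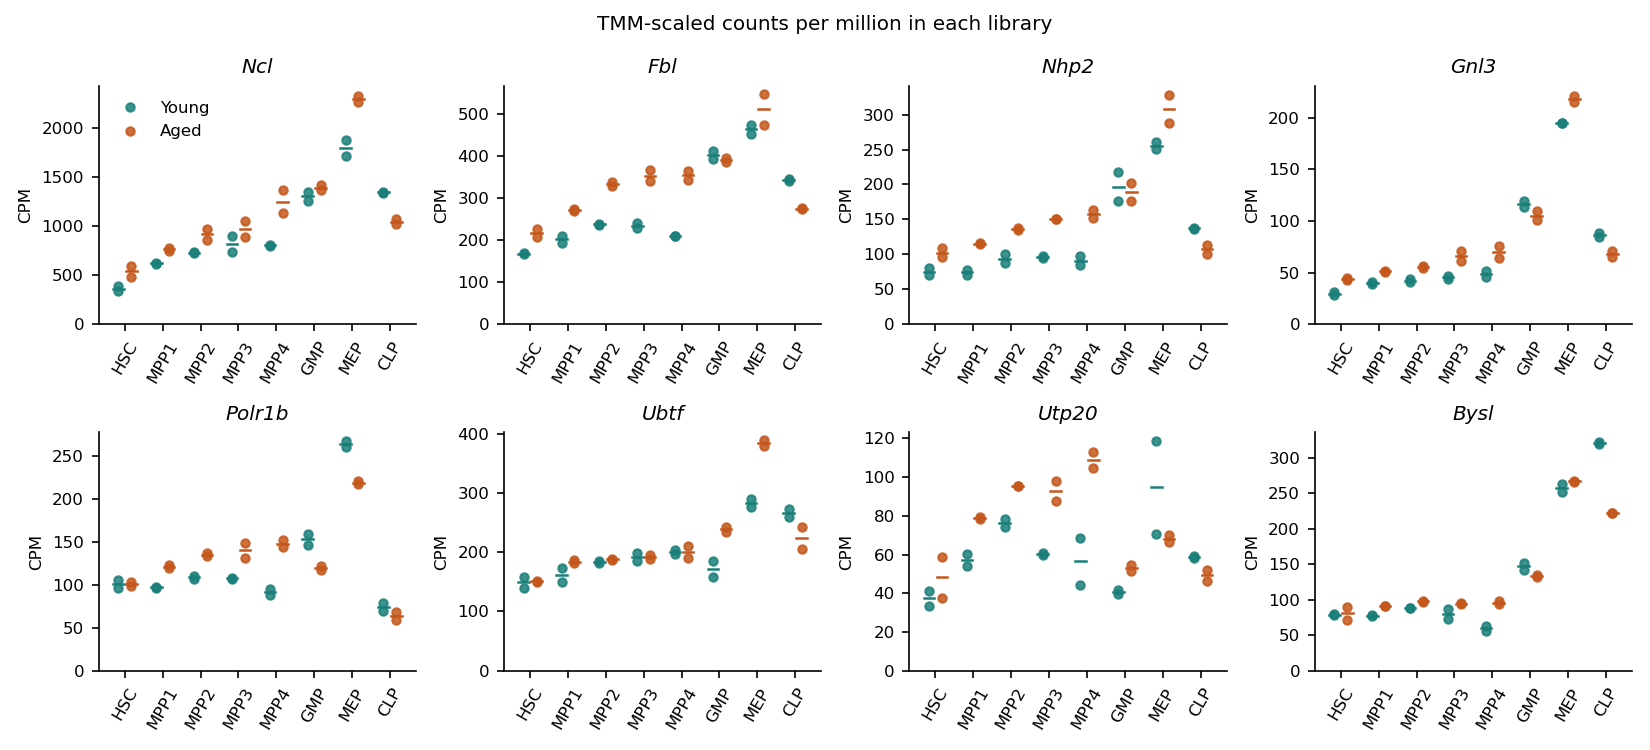
CPM (y axis, from 0) of Ncl, Fbl, Nhp2, Gnl3, Polr1b, Ubtf, Utp20 and Bysl, 1 panel each, in every library by fraction (x axis), with Young and Aged points in separate colours. Fbl and Nhp2 separate by age in each MPP fraction, Ubtf is higher in both Aged libraries in GMPs, MEPs and, by smaller margins, MPP1 and MPP2, and lower in CLPs, and Bysl is highest in Young CLPs and lower in Aged CLPs.

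Cell cycle genes moved with the ribosome biogenesis factors in the MPPs. Of 20 S phase genes, 20 were called higher in the mean of the Aged MPPs, and 18 of 20 G2M phase genes (medians 0.45 and 0.50). The summed level of the S phase genes was 5955 to 6104 CPM in Young and 8631 to 8662 CPM in Aged MPP4, and that of the G2M genes 2572 to 2723 and 3769 to 3958 CPM. Marker genes of other cells moved as well. Of 6 HSC markers 4 were lower in the mean of the Aged MPPs (528 to 588 CPM summed in Young and 243 to 245 CPM in Aged MPP4), as were 6 of 8 erythroid markers (919 to 965 and 217 to 227 CPM in MPP2), 6 of 6 macrophage markers (61.7 to 64.6 and 34.9 to 38.9 CPM in MPP4), 3 of 6 megakaryocyte markers and 3 of 7 B lineage markers, while 1 megakaryocyte marker was higher. Of 8 neutrophil markers 4 were lower and 2 higher, and their sum fell in MPP3 (4489 to 4768 CPM in Young and 2258 to 2272 CPM in Aged) and MPP2 (2533 to 2641 and 1861 to 1875 CPM) but was above the Young range in Aged MPP1 (289.6 to 303 and 425 to 668 CPM) and MPP4 (795 to 849 and 889 to 922 CPM). Of 6 dendritic cell markers 4 were higher and 1 lower. The part of cell cycle and cell composition in the result was not tested.

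In HSCs the age difference was smaller. Of the 39 genes, 5 were higher in Aged HSCs (median 0.12 over all 39), where 3.74% of all tested genes were called higher and 1.66% lower. No gene was called lower by edgeR, with 1 at an unadjusted p under 0.05 and 0 by DESeq2. Polr1c, the subunit shared by polymerases I and III, was at 30.8 and 31.6 CPM in the Young libraries and 41.8 and 49.2 CPM in the Aged libraries of HSCs (0.55 (SE 0.082, adjusted p = 0.000112)), and was called without any one library. Nucleolin was at 388 and 336 CPM in the Young libraries and 596 and 484 CPM in the Aged libraries of HSCs, without overlap, but with a wide gap within each age. Its difference of 0.58 (SE 0.11, adjusted p = 0.000925) was not called without Young HSC replicate 2 (0.43, adjusted p 0.067) or Aged HSC replicate 1 (0.38, adjusted p 0.041).

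Gnl3 was at 28.6 and 30.8 CPM in the Young libraries and 44.2 and 42.7 CPM in the Aged libraries of HSCs (0.55 (SE 0.09, adjusted p = 0.000313)), and the call was lost without Young HSC replicate 1 (0.47, adjusted p 0.016). Fbl rose by 0.37 (SE 0.067, adjusted p = 0.00071) and Nhp2 by 0.44 (SE 0.11, adjusted p = 0.00934), with the call of Fbl lost without either Young HSC library (adjusted p 0.013 and 0.030) or Aged HSC replicate 2 (adjusted p 0.021). The number called was 2 without either Young HSC library and 3 without Aged HSC replicate 1. A fit to the 4 HSC libraries alone called 0, with 7 higher and 0 lower at an unadjusted p under 0.05. In 17 of the 39 genes both Aged HSC libraries lay above both Young ones and in 2 below, where the shares of all tested genes were 25.4% and 20.2%. Of the cell cycle genes 9 of 20 S phase and 15 of 20 G2M genes were higher in Aged HSCs (306 to 308 CPM summed over the G2M genes in Young and 496 to 524 CPM in Aged), and 5 of 8 neutrophil markers were higher (269 to 294 and 605 to 779 CPM summed), whereas Elane, Mpo and Ctsg had lower means in Aged HSCs (17.2 and 7.45, 61.7 and 47.3, and 4.25 and 2.03 CPM) and were not called. Basophil and mast cell markers were higher in 3 of 4 (0.978 to 1.62 and 9.54 to 17.0 CPM), megakaryocyte markers in 2 of 6 (338 to 345 and 556 to 614 CPM summed) and T and NK markers in 2 of 6. The megakaryocyte markers were mixed: mean CPM rose for Vwf (222 and 419), Itga2b (61 and 119) and Gp1bb (3.43 and 6.49). It fell, without a call, for Gp9 (34.4 and 28.7), Pf4 (16.1 and 10.8) and Ppbp (5.14 and 1.77). Of 6 dendritic cell markers 1 was higher and 1 lower, and 1 of 6 macrophage markers was lower. The part of these genes in the result was not tested.

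In GMPs the genes split. 3 were higher in Aged GMPs (Ubtf, Nolc1 and Mybbp1a) and 5 lower (Nip7, Polr1e, Polr1b, Utp15 and Wdr12), where 9.93% of all tested genes were called higher and 8.97% lower, and the median of the 39 was -0.04. The shares of the 39 called, 7.69% higher and 12.8% lower, were close to these. Polr1b, higher in each Aged MPP fraction, was at 159 and 147 CPM in the Young libraries and 122 and 118 CPM in the Aged libraries of GMPs, a fall without overlap (-0.35 (SE 0.077, adjusted p = 0.00153)) that was not called without Young GMP replicate 1 (-0.30, adjusted p 0.022) or Aged GMP replicate 2 (-0.33, adjusted p 0.019). Nip7, a factor of the large subunit, had -0.43 (SE 0.078, adjusted p = 0.000301), or -0.25 with offsets for GC content and length (adjusted p 0.034), and Polr1e had -0.38 (SE 0.09, adjusted p = 0.00288), a call lost without Young GMP replicate 2 or either Aged GMP library (adjusted p 0.019 to 0.028). The number called fell to 4 without Young GMP replicate 2 or Aged GMP replicate 2 and to 5 without Aged GMP replicate 1, and 2 were called, both higher, in a fit to the 4 GMP libraries.

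Ubtf, the gene not called in the mean of the MPPs, was at 185 and 158 CPM in the Young libraries and 243 and 234 CPM in the Aged libraries of GMPs (0.48 (SE 0.087, adjusted p = 0.000284)). The call was lost without Young GMP replicate 2 (0.35, adjusted p 0.014) and with offsets for GC content and length (0.22, adjusted p 0.096). Mybbp1a had 0.35 (SE 0.06, adjusted p = 0.000184), and 0.14 with those offsets (adjusted p 0.019). Nolc1 had 0.41 (SE 0.11, adjusted p = 0.00786), a call lost without any one of the 4 GMP libraries. With libraries scaled by their totals alone the split was 4 higher and 4 lower and the median turned to 0.02. In Aged GMPs 10 of 20 S phase genes were lower (9787 to 10140 CPM summed in Young and 8213 to 8241 CPM in Aged) whereas 18 of 20 G2M genes were higher (2451 to 2462 and 3834 to 3941 CPM), and 4 of 8 erythroid markers were lower (737 to 818 and 30.8 to 80.5 CPM), as were 3 of 6 macrophage markers (520.2 to 559 and 439 to 486 CPM), 3 of 8 neutrophil markers (90350 to 91850 and 90780 to 91010 CPM summed) and 2 of 4 basophil and mast cell markers (637 to 646 and 255 to 328 CPM), with no test of their part in the result.

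In MEPs, the fraction with the highest level of these genes, 11 were higher in Aged cells and 2 lower (median 0.17), where 9.08% of all tested genes were called higher and 11.7% lower. Large-subunit factors made up 4 of the 11 (Bop1, Noc2l, Pes1 and Nop2). Nolc1 was at 380.2 and 384 CPM in the Young libraries and 664 and 617 CPM in the Aged libraries of MEPs (0.74 (SE 0.11, adjusted p = 2.8e-05)) and Rrp9, a box C/D protein, at 116 and 119 CPM in the Young libraries and 184 and 178 CPM in the Aged libraries (0.62 (SE 0.08, adjusted p = 4.78e-06)). Both calls held without any one library. Ubtf was at 276 and 289.9 CPM in the Young libraries and 379.6 and 389.8 CPM in the Aged libraries of MEPs, a rise without overlap (0.44 (SE 0.086, adjusted p = 0.000435)) that was not called without Young MEP replicate 1 (0.38, adjusted p 0.014) or Aged MEP replicate 2 (0.38, adjusted p 0.013).

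The genes that were lower in Aged MEPs were Utp15 (-0.41 (SE 0.082, adjusted p = 0.0006)) and Polr1b. Polr1b was at 267 and 260.4 CPM in the Young libraries and 217 and 221 CPM in the Aged libraries of MEPs (-0.27 (SE 0.076, adjusted p = 0.00981)), and the call was lost without Young MEP replicate 1, Aged MEP replicate 1 or Aged MEP replicate 2. Utp20 was at 70.6 and 119 CPM in the Young libraries and 70.0 and 66.5 CPM in the Aged libraries, with the Young libraries far apart, and was not called (-0.47 (SE 0.20, adjusted p = 0.0728)), nor was Heatr1 (-0.37 (SE 0.12, adjusted p = 0.0248)). The number called was 5 without Aged MEP replicate 2 and 5, all higher, in a fit to the 4 MEP libraries. In 26 genes both Aged libraries lay above both Young ones and in 6 below, against 28.4% and 28.2% of all tested genes. Of the S phase genes 6 of 20 were lower (12880 to 13060 CPM summed in Young and 11290 to 11360 CPM in Aged). Of the G2M genes 4 of 20 were higher and 1 lower (4907 to 5183 and 5307 to 5357 CPM). Among markers, 6 of 7 of the B lineage were lower (182 to 193 and 0.430 to 1.22 CPM), as were 4 of 6 macrophage markers (6.53 to 8.96 and 0 to 0.861 CPM) and 6 of 9 sort antigens. Of 8 neutrophil markers 4 were lower and 1 higher (261 to 289.7 and 28.5 to 123 CPM summed), and of 6 dendritic cell markers 2 were lower and 1 higher (257 to 258 and 122 to 199 CPM). Of 8 erythroid markers 0 were called (5760 to 5815 and 6321 to 6621 CPM). Their part in the result was not tested.

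CLPs went the other way. Of the 39 genes 6 were lower in Aged CLPs (Nop58, Bysl, Gar1, Gnl3, Mybbp1a and Fbl; median of all 39, -0.20), where 4.73% of all tested genes were called lower and 5.71% higher. None was called higher by edgeR, at an unadjusted p under 0.05 or by DESeq2 (0 in each). The sign was negative in 34 of the 39, and both Aged libraries lay below both Young ones in 30, against 30.4% of all tested genes. Nop58, a scaffold of the box C/D particle, was at 192 and 163 CPM in the Young libraries and 110.1 and 119 CPM in the Aged libraries of CLPs (-0.63 (SE 0.11, adjusted p = 0.000398)), a call lost without Young CLP replicate 1 (-0.52, adjusted p 0.017) or Aged CLP replicate 1 (-0.57, adjusted p 0.018). Bysl was at 319 and 322 CPM in the Young libraries and 223 and 222 CPM in the Aged libraries, a fall without overlap that was called without any one library (-0.53 (SE 0.083, adjusted p = 0.00012)). Gar1 had -0.41 (SE 0.075, adjusted p = 0.000466) and Fbl -0.31 (SE 0.066, adjusted p = 0.00193), both not called without either of the same libraries (adjusted p 0.010 to 0.019), and nucleolin, at 1347 and 1339 CPM in the Young libraries and 1018 and 1070.4 CPM in the Aged libraries, did not overlap by age but was not called (-0.36 (SE 0.11, adjusted p = 0.0186)). The number called was 2 without Young CLP replicate 1 or Aged CLP replicate 1 and 0 in a fit to the 4 CLP libraries (0 higher and 18 lower at an unadjusted p under 0.05), whereas DESeq2 called 11 on all libraries.

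Aged CLPs also differed in markers of other cells and of the cell cycle. Of the S phase genes 13 of 20 were lower (8335 to 8347 CPM summed in Young and 6117 to 7172 CPM in Aged) and of the G2M genes 8 of 20 (5248 to 5291 and 3510 to 4326 CPM). Basophil and mast cell markers were lower in 4 of 4 (1683 to 1733 and 7.65 to 12.0 CPM), neutrophil markers in 8 of 8 (1950 to 2006 and 355 to 374 CPM), macrophage markers in 5 of 6 (184 to 204 and 50.5 to 74.5 CPM) and B lineage markers in 6 of 7 (2572 to 2643 and 1250 CPM). Dendritic cell markers were higher in 5 of 6 (5172 to 5271 and 10950 to 15160 CPM), as were 5 of 6 megakaryocyte markers (37.8 to 39.6 and 126 to 196 CPM). Prss34, a basophil gene, was at 0 CPM in both Aged CLP libraries. The part of these cells in the fall of ribosome biogenesis factors was not tested.

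Whether the age difference differed between fractions was tested directly, as the difference in a fraction minus the mean difference over MPP1 to MPP4. In CLPs 33 of the 39 genes had a lower age difference than in the MPPs (median -0.54), where 12.3% of all tested genes were called lower and 10.3% higher. These 33 held all 9 large-subunit factors, all 4 box C/D and all 4 box H/ACA proteins, 5 of 6 nucleolar proteins, 8 of 11 small-subunit factors and 3 of 5 polymerase I genes. None was called higher by edgeR, at an unadjusted p under 0.05 or by DESeq2 (0 in each). Nhp2 differed most, by -1.01 (SE 0.12, adjusted p = 1.27e-06): it was at 137 and 138 CPM in the Young libraries and 100.2 and 114 CPM in the Aged libraries of CLPs, against the rise in each MPP fraction. Nop58 followed at -0.95 (SE 0.12, adjusted p = 4.95e-06) and Fbl at -0.88 (SE 0.074, adjusted p = 2.19e-08). Ubtf, not called in the mean of the MPPs, had -0.31 (SE 0.097, adjusted p = 0.0182) and was not called.

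In GMPs 22 genes had a lower and 1 a higher age difference than the MPPs (median -0.43), where 13.8% and 12.7% of all tested genes were called. The largest were Polr1b at -0.78 (SE 0.087, adjusted p = 5.71e-07), Nip7 at -0.72 and Nhp2 at -0.71. Ubtf was the gene with the higher difference, at 0.42 (SE 0.097, adjusted p = 0.00153), but at 0.08 with offsets for GC content and length (adjusted p 0.63) and 0.32 without Young GMP replicate 2 (adjusted p 0.024), and Nop10 went from -0.60 to -0.11 with them (adjusted p 0.26). Scaling by library totals alone shifted the median of all genes by 0.11 and that of the 39 to -0.32.

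In MEPs 9 genes had a lower and 2 a higher age difference (median -0.17), where 14.7% and 10.2% of all tested genes were called. Utp20 differed by -1.06 (SE 0.22, adjusted p = 0.000707), although by -0.71 without Young MEP replicate 2 (adjusted p 0.015), Heatr1 by -0.88 (SE 0.14, adjusted p = 3.66e-05) and Polr1b by -0.70 (SE 0.086, adjusted p = 2.18e-06). The genes with a higher difference were Ubtf (0.39 (SE 0.096, adjusted p = 0.00306)) and Rrp9 (0.36 (SE 0.09, adjusted p = 0.00351)), but neither was called without any one of the 4 MEP libraries (adjusted p 0.023 to 0.054), and with offsets for GC content and length they were at 0.17 and 0.18. Polr1b and Ubtf, partners in transcription of the same precursor, thus had age differences of opposite sign in MEPs and in GMPs.

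In HSCs 5 genes had a lower age difference than the MPPs (median -0.22), where 1.10% of all tested genes were called lower and 1.91% higher. They were Rrp12 (-0.54 (SE 0.12, adjusted p = 0.00938)), Rrp9 (-0.52 (SE 0.094, adjusted p = 0.00164)), Bop1 (-0.50 (SE 0.086, adjusted p = 0.00096)), Polr1b (-0.43) and Imp4 (-0.34). None was higher by edgeR, at an unadjusted p under 0.05 or by DESeq2 (0 in each). Rrp12 was not called without Young HSC replicate 2 (-0.53, adjusted p 0.041), Aged HSC replicate 1 (-0.47, adjusted p 0.040), any Young MPP1 or MPP2 library or Young MPP4 replicate 1. The count was between 3 and 9 when single libraries were left out, at 3 without Young HSC replicate 2, Young MPP1 replicate 1 or either Young MPP2 library, at 8 without Young MPP3 replicate 2 or Aged MPP4 replicate 1, and at 9 without Young MPP4 replicate 2 or Aged HSC replicate 2. The 4 comparisons with the MPPs share the 16 MPP libraries.

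**Figure D5:**
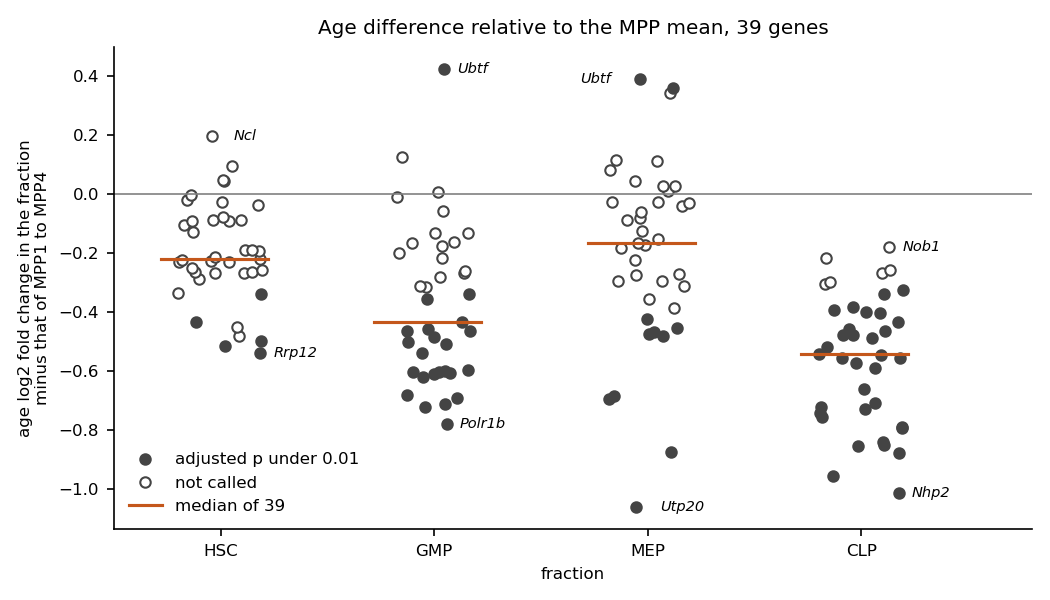
Age difference (Aged against Young, log2) in HSCs, GMPs, MEPs and CLPs minus that in the mean of MPP1 to MPP4 (y axis), 1 point per gene, filled where the adjusted p was under 0.01, with the median of the 39 as a bar. The CLP points all lie below 0 (median -0.54), and Ubtf is the highest point in GMPs and MEPs.

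Other genes of the pathway, a list of 104 further ribosome biogenesis genes, were called higher in smaller shares than the 39 in each Aged MPP fraction. In the mean of the Aged MPPs 64 (61.5%) were higher and 1 lower (median 0.19), against 97.4% of the 39 and 18.9% of all tested genes. In MPP1 to MPP4 the shares higher were 6.73%, 16.3%, 26.0% and 43.3%, against 20.5%, 28.2%, 56.4% and 87.2% of the 39. Noc4l rose most in the mean of the MPPs (0.70, adjusted p 1.17e-10), then Tbl3 (0.58, adjusted p 6.6e-11), both of the small-subunit processome, and Gltscr2 was the gene that was lower (-0.34, adjusted p 1.11e-07). In Aged CLPs 10 (9.62%) were lower and 1 higher, and relative to the MPPs 43 (41.3%, against 84.6% of the 39) were lower and 1 higher. In Aged GMPs 20 (19.2%) were lower and 9 (8.65%) higher, with Tcof1 (treacle, which recruits polymerase I factors) at 1.34 (adjusted p 4.26e-08), and in Aged MEPs 23 (22.1%) were higher and 6 (5.77%) lower, with Tcof1 at 1.53 (adjusted p 1.75e-09). In Young MEPs 83 (79.8%) were higher and 3 lower than in Young HSCs, and in Young GMPs 80 (76.9%) and 3. Of all tested genes 29.7% were higher in Young MEPs and 31.8% in Young GMPs. Of 81 genes of the ribosomal proteins themselves (Rpl and Rps genes), 24 (29.6%) were higher and 1 lower in the mean of the Aged MPPs. In Aged GMPs 12 (14.8%) were lower, against 8.97% of all tested genes, and in Aged CLPs 6 (7.41%), against 4.73%. In Aged MEPs 4 (4.94%) were lower and 0 higher, against 11.7% and 9.08% of all tested genes. Of the 81, 72 had negative log2 fold changes there (median -0.20). Relative to Young HSCs, 58 (71.6%) were lower in Young MPP2, against 16.1% of all tested genes. There 20 of the 39 ribosome biogenesis factors were higher. The share lower was smaller for MPP1 (50.6%, all tested genes 5.67%) and MPP3 (37%, all tested genes 12.8%). It was 19.8% for MPP4, near the 16.1% of all tested genes. Young CLPs had 44 lower and 4 higher, Young GMPs 13 lower and 18 higher, and Young MEPs 6 lower and 32 higher.

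Over the 16 group means the 39 genes varied together. The median Pearson correlation of log2 CPM between pairs of them was 0.829, from 0.038 to 0.988 over 741 pairs. These values describe 16 groups whose libraries share their preparation and scaling. Other sets of genes were not correlated in this way, so the values are not shown to be particular to these 39. Nop2 followed the mean of the other genes most closely (0.986), and Utp20 (0.395) and Bysl (0.625) least. Nolc1, Gnl3 and Ncl had the widest ranges over the groups (3.08, 2.87 and 2.67 log2), and Nob1 the narrowest (0.917). The highest group mean was in Aged MEPs for 29 genes and in Young MEPs for 7, with Utp20 highest in Aged MPP4, Bysl in Young CLPs and Nop10 in Young GMPs. The lowest was in Young HSCs for 22 genes and in Aged CLPs for 8. Gnl3, Ncl, Nop56, Nop58, Tsr1 and Wdr43 contain genes of small nucleolar RNAs, of which the table lists 12, but these had 2 to 64 counts each over all 32 libraries and none passed the filter.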

How the data were processed

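The series holds RNA-seq of 32 libraries, 2 for each of 8 sorted fractions and 2 ages, grouped by their labels. The authors amplified cDNA from total RNA (SMARTer Ultra Low Input), sequenced single reads on a HiSeq instrument, aligned them with TopHat2 2.0.13 and Bowtie2 2.1.0 to mm10 and counted reads per gene with StringTie. The deposited raw counts were used as they stand. The reads had no molecular identifiers, and use of strand is not given in the sources used here. A table of counts normalized by DESeq2 was not used, 20 of its columns having names that match no sample, nor were 8 tables of the authors' own comparisons (fold changes, test statistics and p-values).

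Counts were tested with edgeR 4.0.16 in R 4.3.3 (TMM factors 0.807 to 1.11, filterByExpr, quasi-likelihood F-test, two-sided, 16 group means fitted to all 32 libraries, 16 residual degrees of freedom, common dispersion 0.0127) in 20 comparisons, with Benjamini-Hochberg adjustment over 14154 genes in each and calls where that was under 0.01, as in the study. The fit was run on simulated data with 200 changed genes, for Aged against Young in MPP3 only, and the outcome is not given here. Log2 CPM used a prior count of 2. Named are 17 anchor genes of the roles and up to 3 called genes with the largest change in each direction per comparison, with others by counts or single values (Tcof1 and Prss34 were named after their values were seen), and the alternatives were those of the closing section (DESeq2 1.42.0 among them). The 39 genes, lists, markers and motifs were chosen with earlier results of these data known. Positions are from GENCODE for GRCm38 (mm10), and promoters from RefSeq for GRCm38.p6.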

Additional observations from a re-analysis of the deposited data

Results flagged for a closer look

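The age differences that differed between fractions were set apart for a closer look, because the difference itself passed the test against the mean of MPP1 to MPP4 (edgeR, adjusted p under 0.01). In CLPs 33 genes were lower, with Nhp2 at -1.01, Nop58 at -0.95 and Fbl at -0.88. In GMPs 22 were lower and 1 higher, with Polr1b at -0.78, Nip7 at -0.72 and Nhp2 at -0.71, and Ubtf at 0.42. In MEPs 9 were lower and 2 higher, with Utp20 at -1.06, Heatr1 at -0.88 and Polr1b at -0.70, and Ubtf at 0.39 and Rrp9 at 0.36. In HSCs 5 were lower, with Rrp12 at -0.54, Rrp9 at -0.52 and Bop1 at -0.50. Groups of 2 libraries are too small for a test of outlying libraries.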

How the results depend on the processing

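Counts of called genes depended on the threshold and the fit more than on scaling. With a log2 fold change of at least 0.5 asked for as well, the counts for Aged against Young were 3 (HSCs), 1 (MPP1), 3 (MPP2), 5 (MPP3), 21 (MPP4), 0 (GMPs, against 8 without that limit), 2 (MEPs), 2 (CLPs) and 6 (mean of the MPPs). They were 2, 15, 4 and 21 for HSCs, GMPs, MEPs and CLPs relative to the MPPs, and 5, 11, 13 and 12 for Young MPP1 to MPP4 against HSCs. At an adjusted p under 0.05 they were 14 in MPP1, 19 in MPP2, 16 in CLPs, and 11 and 18 for HSCs and MEPs relative to the MPPs. In MPP1 and MPP2 all were higher in Aged cells, and in CLPs and for HSCs relative to the MPPs all were lower. Shares of all tested genes are not given for the settings of this section, fits with 1 library left out included. The shares called given above are for an adjusted p under 0.01 in the fit to all libraries. These counts thus cannot separate a change in the ribosome biogenesis factors from a change in how many genes were called. Fits to the 4 libraries of 1 fraction called 0 (HSCs, 7 higher and 0 lower at an unadjusted p under 0.05), 20 (MPP1), 27 (MPP2), 9 (MPP3), 21 (MPP4), 2 (GMPs), 5 (MEPs) and 0 (CLPs, 0 higher and 18 lower at an unadjusted p under 0.05).

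Library totals alone gave 5 in MPP1 and 6 in MPP2, and size factors of DESeq2 gave 3 for HSCs relative to the MPPs. Without the filter there were 5 in MPP1 and 3 for HSCs relative to the MPPs. GC and length offsets gave 9 in HSCs (1 of them lower), 13 in MPP1, 10 in CLPs and 8 for HSCs relative to the MPPs, and together with the replicate block 8, 13, 10 and 8, with 17 in MPP2. DESeq2's Wald test gave 11 in CLPs. The other 150 of 195 counts stayed within 1.5 times the reported count. Values of single genes kept direction and call in 3269 of 3667 cases; 237 lost and 149 gained a call. Those that turned did so with GC and length offsets and, to the same 2 decimals unless given, with the block added: in GMPs Dkc1 (0.26) and Bop1 (-0.21), Polr1a in GMPs relative to the MPPs (-0.43), Wdr12 in Young MPP1 (-0.0578, and -0.0534 with the block), and Nop10 in Young GMPs (-0.10) and MEPs (-0.15). The cause was not tested.

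With 1 library left out the counts were 2 to 4 (HSCs), 1 to 5 (MPP1), 4 to 6 (MPP2), 13 to 19 (MPP3), 24 to 31 (MPP4), 4 to 7 (GMPs), 5 to 10 (MEPs), 2 to 6 (CLPs) and 38 to 38 (mean of the MPPs). Relative to the MPPs they were 3 to 9 (HSCs), 19 to 23 (GMPs), 9 to 15 (MEPs) and 27 to 34 (CLPs), and against Young HSCs 2 to 9 (MPP1), 15 to 17 (MPP2), 14 to 17 (MPP3), 16 to 20 (MPP4), 31 to 34 (GMPs), 39 to 39 (MEPs) and 21 to 25 (CLPs). The replicate number was also added as a block. Deviations of same-numbered Young and Aged libraries of a fraction correlated between -0.0557 and 0.0704. Over all pairs of groups the correlations were between -0.0693 and 0.106 (median 0.00682). Whether same-numbered libraries shared a sort or a preparation is not given by the labels and was not tested. With the replicate block 386 of 396 results kept their verdict, 8 gained a call and 2 lost one: Rrp12 in HSCs relative to the MPPs (adjusted p 0.0107) and Utp20 in Young MPP3 (adjusted p 0.0115). Each group held 2 libraries, which limits the estimate of spread; depth was not varied.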
